A study of Mus musculus with 5 samples.

Results

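Klf2, Klf4, Nos3, Thbd and S1pr1 are 5 genes that resting endothelium is known for, and their transcripts were read out in mouse hearts with and without immune checkpoint myocarditis. The 5 were chosen by symbol, and each matched 1 of 31053 gene rows of the count matrices. They were followed in 14152 endothelial barcodes of 38312 retained barcodes, where an endothelial barcode carried at least 2 unique molecular identifiers (UMIs) over Cdh5 (VE-cadherin) and Pecam1 (CD31), and in barcodes of other lineages.

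Steady laminar flow over the vessel wall is known to raise the transcription factors KLF2 and KLF4 through the kinases MEKK2/3, MEK5 and ERK5 and the MEF2 factors, and the CCM complex restrains that cascade. KLF2 and KLF4 then induce endothelial nitric oxide synthase (Nos3), which makes the vasodilator nitric oxide, thrombomodulin (Thbd), which turns thrombin toward the anticoagulant protein C pathway, and the sphingosine 1-phosphate receptor S1PR1, which tightens endothelial junctions. They also hold down adhesion molecules and other inflammatory genes. In T cells, KLF2 and S1PR1 are known instead for keeping naive cells recirculating.

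Every mouse lacked Pdcd1 (Pdcd1-/-), the gene of the checkpoint receptor PD-1. Control mice were Ctla4+/+ (4 mice, 2 libraries) and mice with disease were Ctla4+/-, with 1 intact copy of the checkpoint gene Ctla4 (10 mice, 3 libraries). These genotypes follow the series' design text. The genotype labels write a different number after Pdcd for control replicate 2 and disease replicates 4 and 5, and the number after DRAQ in the cell labels also differs between libraries. Hearts were digested with enzymes and pooled, and living nucleated cells were sorted as DRAQ5+ and DAPI- before 5′ single-cell RNA sequencing. Age, sex, the mice behind each library and the day of each preparation are not given in the sources used here, so p-values of disease against control below measure the spread between libraries of pooled mice. Fits with library as a block measure instead how the difference between sets of barcodes of the same library varies between libraries.

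The libraries, control replicates 1 and 2 and disease replicates 3, 4 and 5, held 24991704 to 55053988 UMIs. Endothelial barcodes made up 34.6 and 46.8% of retained control barcodes and 44.7, 23.7 and 43.8% of retained disease barcodes, with median depths of 2768 to 3571 UMIs. Summed over 10 other pan-endothelial genes, endothelial barcodes held 5507 to 6532 counts per 1000000 UMIs (CPM), against 222 to 284 CPM in fibroblast barcodes. Between 12.9 and 27.5% of endothelial barcodes also passed the gate of another lineage, and pairs of libraries shared 53 to 104 retained barcode sequences (0.948 to 1.57% of the smaller library). In T cell barcodes Ctla4 stood at 408 and 79.5 CPM in control and 128, 645 and 557 CPM in disease libraries, so the groups overlapped. Pdcd1 transcripts were present in all 5 libraries, at 68.9 to 1017 CPM; which part of the gene was deleted is not given in the sources used here, so this level does not test the label. Disease replicate 4 stood apart in its T cell barcodes, with 1983 against 89 to 495 in the other 4 libraries.

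In the GENCODE M21 annotation of GRCm38 all 5 genes are protein coding. Klf2 (ENSMUSG00000055148) lies on the plus strand at chr8:72319033-72321656 and Klf4 (ENSMUSG00000003032) on the minus strand at chr4:55527143-55532466. Nos3 (ENSMUSG00000028978) lies on the plus strand at chr5:24364810-24384474. Thbd (ENSMUSG00000074743) and S1pr1 (ENSMUSG00000045092) lie on the minus strand at chr2:148404466-148408188 and chr3:115710433-115715072.

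The 250 bases before the RefSeq start of Klf2 and Klf4 are shown because MEF2 factors are known to act through the Klf2 promoter. They are written 5′ to 3′ on the gene's strand (RefSeq, GRCm38.p6), at chr8:72318812-72319061 on the plus strand for Klf2 and chr4:55532476-55532725 on the minus strand for Klf4. Capitals mark a match to the MEF2 consensus and a match to CACCC, the core to which KLF proteins bind, on either strand.
Klf2: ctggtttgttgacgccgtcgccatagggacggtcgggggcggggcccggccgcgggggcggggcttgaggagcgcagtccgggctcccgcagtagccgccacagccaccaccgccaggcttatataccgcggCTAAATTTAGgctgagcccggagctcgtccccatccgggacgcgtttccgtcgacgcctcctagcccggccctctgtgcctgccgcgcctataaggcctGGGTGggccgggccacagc
Klf4: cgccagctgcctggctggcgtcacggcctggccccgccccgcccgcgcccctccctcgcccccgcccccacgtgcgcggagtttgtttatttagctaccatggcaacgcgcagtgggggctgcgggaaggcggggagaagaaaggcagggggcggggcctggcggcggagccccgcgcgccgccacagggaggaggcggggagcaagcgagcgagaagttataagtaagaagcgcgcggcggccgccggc
The Klf2 window held 1 match to the MEF2 consensus, 118 bases before the start and readable on both strands, and 1 match to CACCC on the opposite strand, 19 bases before the start. The RefSeq start lies past the GENCODE start of Klf2 given above (chr8:72319033), so this CACCC match falls inside the gene as GENCODE annotates it. The Klf4 window held neither. Among 27025 mouse promoter windows of this length, 3.01% held the MEF2 consensus and 51.3% held CACCC on either strand. The GC box GGGCGG, which overlaps neither motif, occurred 2 times in the Klf2 and 4 times in the Klf4 window and in 32.9% of all windows. These are matches of letters only.

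No member differed between disease and control endothelium beyond the spread between libraries. Klf2, the transcription factor that heads the program, stood at 475 and 716 CPM in control, and disease replicates 3, 4 and 5 had 862, 280 and 834 CPM. The highest 2 values and the lowest were all from disease libraries, so the control values lay inside the range of the disease values. Klf4, its close relative, stood at 462 and 530 CPM in control and at 593, 507 and 605 CPM in disease. Its groups overlapped, with disease replicate 4 between the control libraries.

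Among the genes these factors induce, Nos3 stood at 102 and 121 CPM in control and at 103, 74.8 and 105 CPM in disease. The groups overlapped on the library totals, but with TMM scaling, which corrects totals for composition, control values of 105 and 124 CPM lay above disease values of 102, 74.6 and 102 CPM. The share of all genes that separate as fully is not given here. Thbd stood at 200 and 232 CPM in control and at 266, 213 and 272 CPM in disease. S1pr1 stood at 327 and 353 CPM in control and at 487, 316 and 482 CPM in disease. Disease replicate 4 lay among or below the control libraries for both genes while the other disease libraries lay above them.

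**Figure D1:**
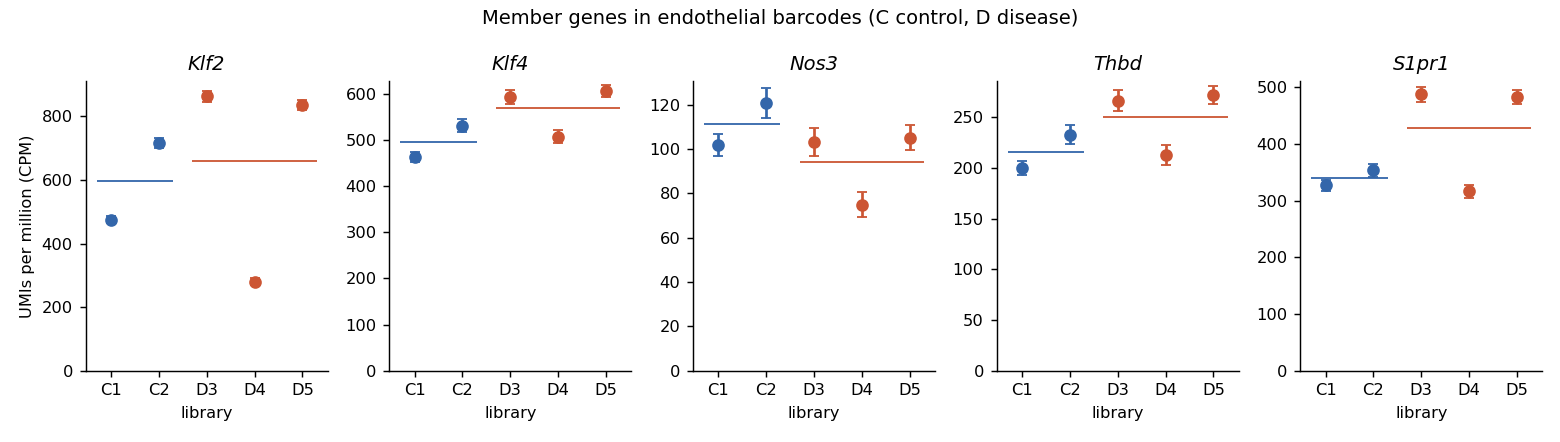
Level in CPM (linear axis from 0) of each member in endothelial barcodes of control libraries (C1, C2, blue) and disease libraries (D3, D4, D5, orange). Points are libraries, bars are 95% Poisson intervals that cover counting error only, and horizontal lines are group means. Klf2 in D4 (280 CPM) lies below all other libraries by more than the counting intervals.

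With edgeR's quasi-likelihood test over 13568 genes, the log2 fold change of disease over control was 0.08 (SE 0.52, Benjamini-Hochberg adjusted p = 0.936) for Klf2 and 0.14 (SE 0.13, adjusted p = 0.587) for Klf4. It was -0.30 (SE 0.18, adjusted p = 0.423) for Nos3, 0.15 (SE 0.15, adjusted p = 0.600) for Thbd and 0.27 (SE 0.21, adjusted p = 0.521) for S1pr1. Thus 0 of 5 members passed the threshold of 0.05, 0 had an unadjusted p under 0.05, and DESeq2 also called 0. Over all genes tested, edgeR called 0.125% higher and 9.59% lower in disease, and DESeq2 0.921% and 11.8%. The members' median log2 fold change was 0.14, beside 0.02 over all genes. The member median ran from 0.040 without control replicate 1 to 0.26 without disease replicate 4 as single libraries were left out.

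Leaving out disease replicate 4 moved Klf2 to 0.46 and S1pr1 to 0.46, the latter with an edgeR adjusted p of 0.0566. Leaving out control replicate 1 moved Klf2 to -0.18, Klf4 to 0.040, Nos3 to -0.42 and Thbd to 0.047, the lowest value of each over the libraries left out. The highest were 0.24 for Klf4, without control replicate 2, and -0.15 for Nos3 and 0.26 for Thbd, without disease replicate 4, and S1pr1 was lowest at 0.16, without disease replicate 3. The GC content of the first 300 transcript bases was 67.0% for Klf2, 80.3% for Klf4, 66.3% for Nos3, 59.0% for Thbd and 62.7% for S1pr1. Over all genes the log2 fold change moved with this GC content. The eighth GC decile, which holds Klf2 and Nos3, had a median of -0.42, and the tenth, which holds Klf4, had -0.17. The deciles of S1pr1 and Thbd, the sixth and the fifth, had medians of -0.0056 and 0.084, and the lowest median of any decile was -0.51, in the ninth, which holds no member. With that trend removed, the log2 fold change of Nos3 was -0.07 and that of Klf2 was 0.32, and edgeR again called 0 of 5 members (0 at an unadjusted p under 0.05), beside 0.162% of genes higher and 7.56% lower. Without barcodes that also passed another lineage's gate edgeR again called 0 of 5, and Thbd at 0.28 (unadjusted p = 0.0236, edgeR adjusted p = 0.129) and S1pr1 at 0.36 (unadjusted p = 0.0424, edgeR adjusted p = 0.182) had an unadjusted p under 0.05. In that fit 25.3% of all genes did, and edgeR called 0.446% higher and 11.5% lower.

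With each barcode thinned to 2000 UMIs, which left out 452 to 812 shallower barcodes per library, a Klf2 UMI was found in 55.3 and 66.3% of control and in 73.0, 39.7 and 72.5% of disease endothelial barcodes, a difference of 0.98 percentage points (two-sided exact permutation p = 1). A Klf4 UMI was found in 46.8 and 47.4% of control and in 54.7, 50.6 and 54.0% of disease barcodes. The Klf4 groups did not overlap, with a difference of 5.97 percentage points (two-sided exact permutation p = 0.2, adjusted p = 0.5 over the 5 members). It was 4.02 points with barcodes thinned to 1000 UMIs and 2.20 points without thinning (two-sided exact permutation p = 0.5). A Nos3 UMI was found in 18.7 and 21.3% of control and in 17.8, 16.0 and 18.5% of disease barcodes, a difference of -2.53 points (two-sided exact permutation p = 0.2, adjusted p = 0.5). That Nos3 difference ran from -3.85 points without control replicate 1 to -1.22 points without control replicate 2, and it was -0.96 points with barcodes thinned to 1000 UMIs and -6.08 points without thinning (two-sided exact permutation p = 0.1). A Thbd UMI was found in 32.1 and 34.7% of control and in 37.2, 34.0 and 37.99% of disease barcodes, and an S1pr1 UMI in 47.6 and 47.4% against 58.4, 45.0 and 57.4%, so both overlapped between the groups. In T cell barcodes, which should lack it, the Nos3 share thinned to the same depth was at most 0.885% in any library. The design of 2 against 3 libraries cannot give an exact p below 0.1.

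Klf2 was the member that varied most between libraries. Its highest endothelial level was 3.08 times the lowest, against 1.31 for Klf4, 1.62 for Nos3, 1.36 for Thbd and 1.54 for S1pr1. On TMM-scaled CPM the Klf2 ratio was 3.05, and of 3104 genes with a mean of at least 50 such CPM, 13.0% spread at least as widely, with a median ratio of 1.39. The same pair of libraries was lowest outside endothelium. Klf2 was lowest in disease replicate 4 and second lowest in control replicate 1 in endothelial, fibroblast, macrophage, T cell and B cell barcodes, which share those libraries' preparation. Control replicate 2 was in the middle in endothelial but highest in fibroblast, macrophage and T cell barcodes. In fibroblast barcodes it stood at 174 and 259 CPM in control and at 251, 95.5 and 248 CPM in disease.

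Other measures moved with those libraries. Leukocyte markers summed to 455 and 80.2 CPM in control and to 143, 977 and 264 CPM in disease endothelial barcodes, so they were highest in disease replicate 4 and next highest in control replicate 1. T cell markers in endothelial barcodes were highest in disease replicate 4 and next highest in disease replicate 5, at 97.0 and 9.40 CPM in control and 15.6, 438 and 120 CPM in disease. Macrophage markers summed to 208 and 43.4 CPM in control and to 105, 316 and 99.9 CPM in disease. The sum of the pan-endothelial genes was lowest in disease replicate 4 and next lowest in control replicate 1. It was 5638 and 6532 CPM in control and 6458, 5507 and 6476 CPM in disease. Barcodes that also passed another lineage's gate were 27.5 and 12.9% of control and 19.2, 26.7 and 19.3% of disease endothelial barcodes. On TMM-scaled CPM disease replicate 4 also had the lowest level of 31.5% of the 3104 genes. The part of these measures in the Klf2 levels was not tested.

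Outside endothelium the members parted into 2 patterns, one narrow and one broad. Nos3 was almost restricted to endothelial barcodes, which held 84.7 to 90.6% of its UMIs while holding 18.5 to 42.6% of all UMIs. It stood at 1.11 to 2.25 CPM in fibroblast, 1.39 to 2.91 CPM in macrophage and at most 3.82 CPM in T cell barcodes. In B cell barcodes it reached at most 5.77 CPM, with 3 UMIs over all libraries. S1pr1 was nearly as concentrated, with 76.1 to 89.7% of its UMIs in endothelial barcodes. It had 108 to 147 CPM in B cell barcodes but 2.97 to 6.69 CPM in fibroblast barcodes.

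In T cell barcodes S1pr1 stood at 24.3 and 175 CPM in control and at 82.2, 28.6 and 35.2 CPM in disease. Klf2 in the same barcodes stood at 30.6 and 217 CPM in control and at 155, 17.3 and 48.0 CPM in disease. Control replicate 2 and disease replicate 3 were the highest libraries for both genes, and they also had the fewest T cell barcodes (89 and 123) and the lowest Ctla4 levels given above. Their Pdcd1 levels, 68.9 and 218 CPM, were the lowest as well.

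Thbd was spread over endothelial barcodes, with 54.7 to 68.8% of its UMIs, and fibroblast barcodes, at 90.4 to 105 CPM. Klf4 was the broadest member, with 22.6 to 36.5% of its UMIs in endothelial barcodes. Its fibroblast levels of 756 and 995 CPM in control and 738, 802 and 814 CPM in disease were above the endothelial level of the same library in 5 of 5 libraries. Its macrophage levels were 516 and 807 CPM in control and 674, 333 and 497 CPM in disease, which overlapped its endothelial levels. In T cell and B cell barcodes Klf4 stayed at 33.6 to 95.7 CPM. These shares depend on the gates and on how many cells of each type were recovered.

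**Figure D2:**
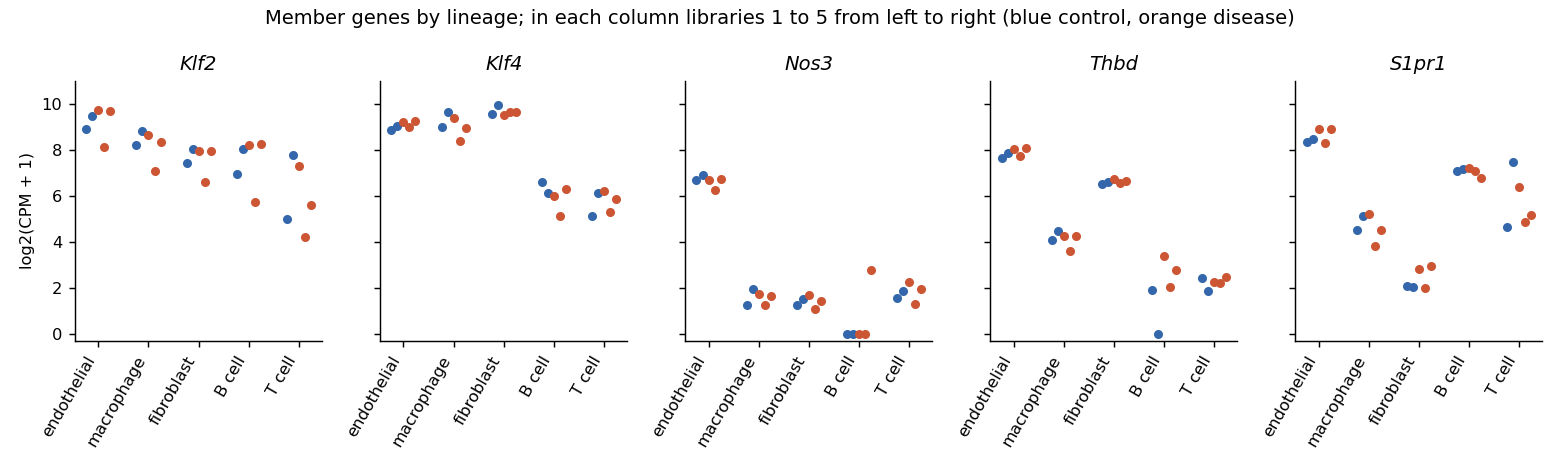
Level of each member as log2(CPM + 1) in 5 lineages, with 1 point per library (blue control, orange disease, libraries 1 to 5 from left to right). Nos3 falls from 74.8 to 121 CPM in endothelial barcodes to under 4 CPM in macrophage, fibroblast and T cell barcodes and to at most 5.77 CPM in B cell barcodes. Klf4 is higher in fibroblast than in endothelial barcodes.

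The genes most like each member across 25 lineage and library sums, by Pearson r of log2(CPM + 1), are given as a description, since sums of a library share its preparation. Klf2 was followed by Plk2 (r = 0.90), Zfp36l1 (0.86) and Cbfa2t3 (0.80). Klf4 was followed by Jun (0.97), Nav1 (0.97) and Fos (0.96), and Jun and Fos encode the subunits of the early-response factor AP-1. Nos3 was followed by Zfp366 (0.98), Mcam (0.98) and Podxl (0.97). Thbd was followed by Cd151 (0.97), Chmp3 (0.96) and Unc5b (0.96), and S1pr1 by Map4k2 (0.93), Icam2 (0.92) and Tspan13 (0.92).

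The genotype effect on the members was also within the spread between libraries in each other lineage tested. Neutrophil, NK cell, mural and Schwann barcodes had fewer than 50 in at least 1 library and were not tested. In fibroblast barcodes 0 of 5 members were called (0 at an unadjusted p under 0.05, 0 by DESeq2), where 0.379% of genes were called higher and 12.5% lower. In macrophage barcodes 0 of 5 were called (0 at an unadjusted p under 0.05, 0 by DESeq2), where 0.0907% were called higher and 7.35% lower. In T cell barcodes 0 of 4 tested members were called (0 at an unadjusted p under 0.05, 0 by DESeq2), with 0.0107% of genes called higher and 5.23% lower, and Nos3 was under the count filter. In B cell barcodes 0 of 3 tested members were called (0 at an unadjusted p under 0.05, 0 by DESeq2), with 0.183% called higher and 8.9% lower, and Nos3 and Thbd were under the filter. By edgeR the estimates in T cell barcodes were -0.99 (SE 0.87, adjusted p = 0.653) for S1pr1 and -0.70 (SE 1.09, adjusted p = 0.819) for Klf2. S1pr1 in fibroblast barcodes was at 0.67 (SE 0.39, edgeR adjusted p = 0.316). Without disease replicate 4 the fibroblast value was 0.95 with an edgeR adjusted p of 0.0470, beside 0.461% of all genes called higher and 13% lower, at levels of 3.16 to 6.69 CPM in the remaining libraries.

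Whether the genotype effect differed between endothelium and another lineage was tested as an interaction, with library as a block. Against fibroblasts, edgeR called 0 of 5 members and 0.00696% of all genes (1 of 14366). The difference was 0.44 on the log2 scale for Klf4 (SE 0.13, unadjusted p = 0.00987, adjusted p = 0.386) and 0.34 for Klf2 (SE 0.11, unadjusted p = 0.0152, adjusted p = 0.416), and these 2 members were the ones at an unadjusted p under 0.05, while DESeq2 called 0. Part of those values is a shift of all genes: the median over all genes was 0.12, and it moved between -0.13 and 0.13 as libraries were left out. With TMM scaling computed within each lineage, added after the fits were seen, the median was 0.01, the Klf4 difference was 0.33 (edgeR unadjusted p = 0.0315, adjusted p = 0.744) and the Klf2 difference 0.22 (edgeR unadjusted p = 0.0788, adjusted p = 0.763). Leaving out 1 library gave 0.13 to 0.36 for Klf4 and 0.069 to 0.29 for Klf2, lowest without control replicate 2 and without control replicate 1. With scaling within each lineage those ranges were 0.24 to 0.42 and 0.18 to 0.30.

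Against macrophages and against T cells edgeR called 0 of 5 members and 0% of all genes. Klf4 against macrophages, at 0.55 (unadjusted p = 0.0390, edgeR adjusted p = 0.943), was the 1 member at an unadjusted p under 0.05, and DESeq2 called 0 of the members in both comparisons. With scaling within each lineage that Klf4 difference was 0.43 (edgeR unadjusted p = 0.0928). Against T cells 0 members had an unadjusted p under 0.05.

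Within endothelium 4 of the 5 members differed between arterial and capillary barcodes. Arterial barcodes, with at least 2 UMIs over Gja5, Sema3g, Stmn2 and Bmx, were compared with capillary barcodes, with at least 3 UMIs over Rgcc, Car4, Gpihbp1, Cd36 and Aqp1, of the same library. This comparison was chosen after the levels were seen. Klf2 stood at 601 and 806 CPM in arterial against 438 and 670 CPM in capillary control barcodes. Among disease libraries it stood at 1035, 368 and 1098 CPM in arterial against 802, 270 and 767 CPM in capillary barcodes. Arterial Klf2 was thus higher in 5 of 5 libraries, disease replicate 4 included.

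Klf4 showed the widest step, from 397 and 450 CPM in capillary to 566 and 612 CPM in arterial barcodes of the control libraries. In the disease libraries it went from 497, 437 and 516 CPM to 743, 653 and 728 CPM. By edgeR with library as a block, arterial over capillary was 0.54 (SE 0.04, adjusted p = 1.77e-08) for Klf4 and 0.43 (SE 0.04, adjusted p = 1.1e-06) for Klf2. It was 0.23 (SE 0.04, adjusted p = 2.46e-04) for S1pr1 and 0.21 (SE 0.04, adjusted p = 0.00192) for Thbd, and these 4 genes were higher in 5 of 5 libraries. Nos3 was 0.07 (SE 0.05, adjusted p = 0.400), and its arterial over capillary ratio ran from 0.978 to 1.08. So 4 of 5 members were called higher and 0 lower, where 10% of 11575 genes were called higher and 10.1% lower. Arterial barcodes were also deeper, with medians of 3490 to 4180 UMIs against 2549 to 3326 UMIs. Summed over 21 early-response genes that tissue digestion is known to induce, arterial barcodes were also higher in 5 of 5 libraries. The sums were 26527 and 22638 CPM in arterial against 18584 and 15481 CPM in capillary control barcodes. In disease libraries they were 20209, 19707 and 21874 CPM against 13725, 14849 and 16106 CPM. The part of digestion in the arterial step was not tested. With every barcode thinned to 2000 UMIs, the share with a UMI was higher in arterial barcodes in 5 of 5 libraries for Klf2, Klf4, Thbd and S1pr1 and in 4 of 5 for Nos3. The thinned Klf4 share was 56.2 and 55.8% of arterial against 41.5 and 43.4% of capillary barcodes in control libraries, and 67.2, 58.2 and 63.5% against 48.5, 47.7 and 48.96% in disease libraries.

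**Figure D3:**
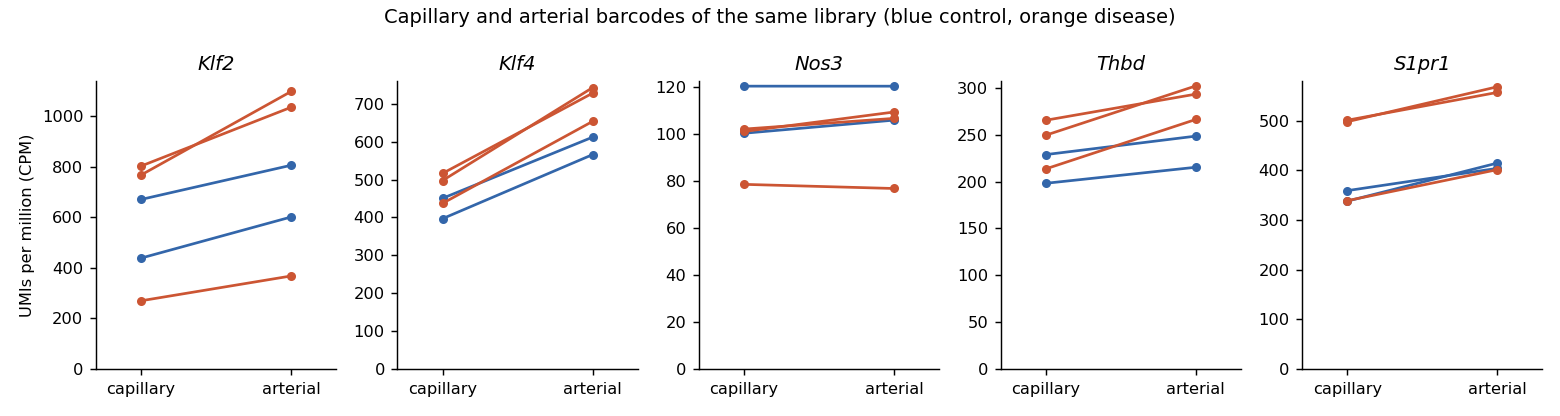
Level in CPM (linear axis from 0) in capillary and arterial barcodes, with a line for each library (blue control, orange disease). For Klf2, Klf4, Thbd and S1pr1 every line rises toward arterial barcodes, while Nos3 is higher in arterial barcodes in 3 of 5 libraries, with ratios of 0.978 to 1.08.

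Genotype effects inside both vessel types were again within the spread. In arterial barcodes 0 of 5 members were called (0 at an unadjusted p under 0.05, 0 by DESeq2), beside 0.119% of genes higher and 8.79% lower by edgeR. In capillary barcodes 0 of 5 were called (0 at an unadjusted p under 0.05, 0 by DESeq2), beside 0.103% higher and 9.39% lower. Without disease replicate 4, S1pr1 in arterial barcodes reached 0.42 with an edgeR adjusted p of 0.0369, where the estimate with all libraries was 0.28 (adjusted p = 0.422). Klf2 at 0.57 (unadjusted p = 0.00942, edgeR adjusted p = 0.0801), Klf4 at 0.29 (edgeR adjusted p = 0.137) and Thbd at 0.33 (edgeR adjusted p = 0.168) then also had an unadjusted p under 0.05, so 4 of 5 members did without that library and 0 with all libraries. Of all genes in that fit 21.7% did, and edgeR called 0.316% higher and 9.39% lower.

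Venous and endocardial barcodes were too few in some libraries for a test (44 to 84 and 25 to 58 per library) and are described only. Endocardial barcodes were taken with at least 2 UMIs over Npr3, Cytl1 and Hapln1, whatever other subset gate they passed, a choice made after the subset sizes were seen. In them Nos3 averaged 192 CPM (SD 39.4, n = 5 libraries), against 104 CPM (SD 16.2, n = 5) in arterial and 100.4 CPM (SD 14.8, n = 5) in capillary barcodes. S1pr1 went the other way, with 214 CPM (SD 52.2, n = 5) in endocardial and 267 CPM (SD 72.3, n = 5) in venous barcodes against 469 CPM (SD 85.7, n = 5) in arterial barcodes. Klf4 in venous barcodes averaged 777 CPM (SD 142, n = 5) against 660 CPM (SD 75.3, n = 5) in arterial barcodes, within the spread of the libraries.

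**Figure D4:**
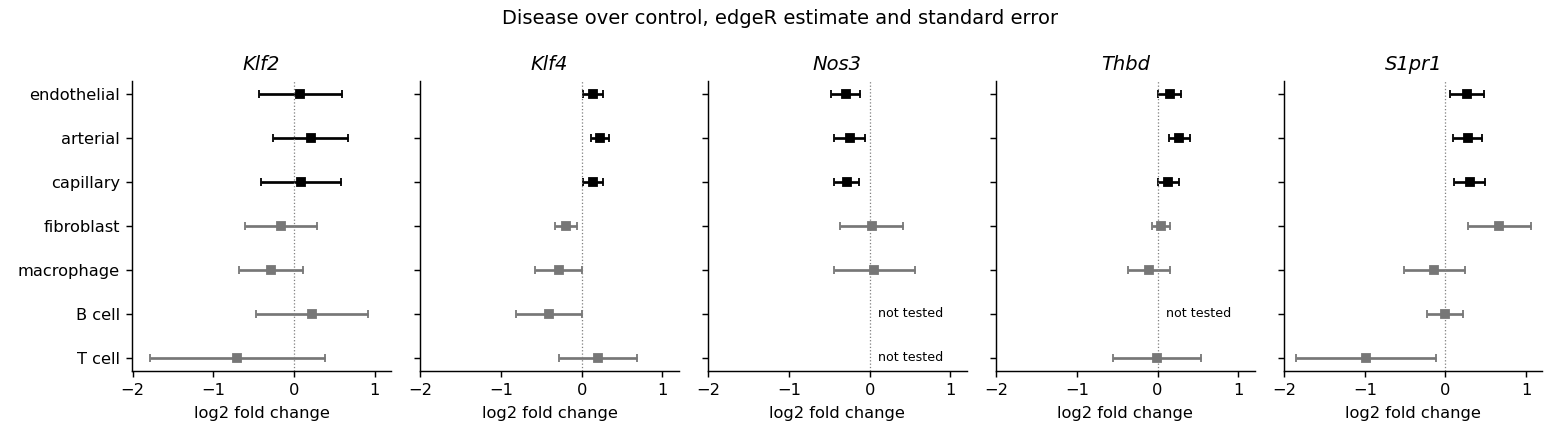
Log2 fold change of disease over control with its standard error (edgeR) for each member in endothelial barcodes and their arterial and capillary subsets (black) and in other lineages (grey). Estimates for the endothelial sets lie between -0.30 and 0.30, and none in any set passed an adjusted p of 0.05.

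Which members were found in the same endothelial barcodes was read after thinning to 2000 UMIs, and the pairs with the widest mean gaps are given first. A Klf4 UMI was found on average in 55.4% of barcodes with a Klf2 UMI and in 44.4% of those without, higher by 6.43 to 18.1 percentage points in 5 of 5 libraries. An S1pr1 UMI was found in 57.5% of barcodes with and 47.8% of those without a Thbd UMI, higher by 6.37 to 16.3 points in 5 of 5. Other gaps came near 0 in some libraries: a Nos3 UMI was more frequent by 0.46 to 3.66 points and a Thbd UMI by 0.14 to 9.89 points in barcodes with a Klf4 UMI than in those without. Of the 10 pairs, Klf4 with S1pr1 was the 1 that did not lean the same way in every library (higher in 2 of 5). Pairs of other genes were not measured, so these gaps have no background. All 5 members were found together in 1.04 to 2.66% of barcodes and none in 4.34 to 14.5%, the latter highest in disease replicate 4. These shares are a description, and barcodes that hold more than 1 cell were not removed from them.

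Of 18 upstream genes (the MEKK, MEK5, ERK5 and MEF2 cascade, the CCM complex and its partners), edgeR called 5 lower and 0 higher in disease endothelium, where 9.59% of all genes were called lower. Their median log2 fold change was -0.39 beside 0.02 over all genes, and it was -0.16 with the GC trend removed and -0.17 without control replicate 2. Rap1a, a small GTPase that recruits the CCM protein KRIT1 to junctions, fell from 276 and 285 CPM in control to 151, 164 and 131 CPM in disease (log2 fold change -0.97, SE 0.14, edgeR adjusted p = 0.0135). Ccm2, the scaffold of the CCM complex, fell by 1.16 on the log2 scale (edgeR adjusted p = 0.0283). For each of these genes the groups of libraries were apart, a separation whose share over all genes is not given here. In fibroblast barcodes edgeR called 6 of the 18 lower, beside 12.5% of all genes, and these included Rap1a, Ccm2, Map3k2, Map2k5 and Mef2a, the 5 called in endothelium.

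The cascade's kinases Map3k2 (MEKK2) and Map2k5 (MEK5) fell by 0.77 and 1.10 on the log2 scale (edgeR adjusted p = 0.0177 and 0.0192). Mef2a, a MEF2 factor named after its values were seen, fell by 0.66 (edgeR adjusted p = 0.0317). Mapk7 (ERK5) itself was at -0.34 (edgeR adjusted p = 0.405) and Mef2c at 0.05 (edgeR adjusted p = 0.799), both also named after their values were seen. With the GC trend removed 3 of the 18 were called, and Map3k2 and Ccm2 were not among them. Leaving out single libraries gave 0 to 4 calls. Of all genes, edgeR then called 5.93% lower without control replicate 1, 3.36% without control replicate 2, 7.9% without disease replicate 3, 8.78% without disease replicate 4 and 3.19% without disease replicate 5. Of the 18, 0 were called without control replicate 2 or disease replicate 5, without disease replicate 3 Rap1a was the 1 called, and without control replicate 1 the calls were Map2k5, Piezo1 and Rap1b, the last 2 named after their values were seen.

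Of 9 other genes that KLF2 or KLF4 induce, edgeR called 0 with all libraries and barcodes, beside 0.125% of all genes higher and 9.59% lower. Of the 9, 1 had an unadjusted p under 0.05, beside 20.5% of all genes, and DESeq2 called 1, beside 0.921% higher and 11.8% lower. Their median was 0.15, and it was -0.084 without control replicate 2, 0.054 without control replicate 1 and 0.042 with the GC trend removed. Timp3, an inhibitor of matrix proteases, stood at 797 and 916 CPM in control and at 1338, 1104 and 1288 CPM in disease (0.48, SE 0.13, edgeR adjusted p = 0.115). Its groups did not overlap, a separation whose share over all genes is not given here. Timp3 was called higher by DESeq2, and by edgeR with the GC trend removed (beside 0.162% of all genes higher), with at least 4 UMIs required over Cdh5 and Pecam1 (0.176%), or without barcodes that passed another lineage's gate (0.446%). Plpp3, a phosphatase of bioactive lipids, stood at 641 and 635 CPM in control and at 664, 395 and 600.2 CPM in disease (edgeR adjusted p = 0.561).

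Of the genes these factors hold down, 9 of 10 were tested, 1 was called lower and 0 higher, beside 9.59% and 0.125% of all genes, and the median was 0.30. That median moved from 0.02 without disease replicate 4 to 1.22 without control replicate 1. The 1 called was F3, tissue factor, the starter of coagulation, which fell by 1.71 on the log2 scale at low levels (11.7 and 7.22 CPM in control, 3.52, 3.14 and 2.40 CPM in disease, edgeR adjusted p = 0.0284). F3 was not called once the GC trend was removed, any 1 library was left out or the endothelial gate was lowered to 1 UMI, and it was under the count filter without barcodes that passed another lineage's gate. In fibroblast barcodes edgeR also called F3 lower, as the 1 called of 8 such genes tested, beside 12.5% of all genes lower. The adhesion molecule Vcam1, named after its values were seen, stood at 77.3 and 37.8 CPM in control endothelial barcodes. In disease libraries it stood at 72.2, 158 and 86.8 CPM (edgeR adjusted p = 0.412). It was highest in disease replicate 4, where Klf2 was lowest. Summed over the 10 genes, disease replicate 4 was also highest outside endothelium. It had 2111 against 910 to 1160 CPM in fibroblast and 2764 against 1894 to 2068 CPM in macrophage barcodes. The sums in T cell and B cell barcodes were highest there as well. The part of Klf2 in these levels was not tested.

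Of the nitric oxide pathway 14 of 16 genes were tested, with 1 called lower and 0 higher, beside 9.59% and 0.125% of all genes, and a median of 0.09. The median was -0.11 without control replicate 2, -0.14 without barcodes that passed another lineage's gate and 0.021 with the GC trend removed. Without disease replicate 4 edgeR also called Gch1 lower, named after its values were seen, beside 8.78% of all genes lower. Qdpr, which regenerates the cofactor tetrahydrobiopterin that nitric oxide synthase needs, was called lower by edgeR in both endothelial and fibroblast barcodes. In fibroblast barcodes it was the 1 called of 12 pathway genes tested, beside 12.5% of all genes lower. In endothelial barcodes Qdpr fell from 93.7 and 90.0 CPM in control to 23.5, 18.4 and 23.6 CPM in disease (log2 fold change -2.13, SE 0.14, edgeR adjusted p = 0.00187). It was called under all 14 alternatives run, at log2 fold changes of -2.20 to -1.94.

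Around thrombomodulin, 8 of 10 haemostasis genes were tested and 1 was called lower, beside 9.59% of all genes. That gene was F2r, the thrombin receptor PAR1, which fell by 0.58 on the log2 scale (61.9 and 58.4 CPM in control, 40.1, 44.0 and 42.0 CPM in disease, edgeR adjusted p = 0.0264), and it was not called with the GC trend removed or without control replicate 1, control replicate 2, disease replicate 3 or disease replicate 5. Of the sphingosine 1-phosphate system 10 of 13 genes were tested and edgeR called 0 (3 at an unadjusted p under 0.05, 3 lower by DESeq2). The shares of all genes were 9.59% lower by edgeR, 20.5% at an unadjusted p under 0.05 and 11.8% lower by DESeq2. Plpp1, a lipid phosphatase, stood at 352 and 371 CPM in control and at 226, 113 and 134 CPM in disease (-1.26, SE 0.31, edgeR adjusted p = 0.0825). Its groups did not overlap, a separation whose share over all genes is not given here. EdgeR called Plpp1 lower without disease replicate 3 (adjusted p = 0.0142) and without barcodes that passed another lineage's gate (adjusted p = 0.0364). The receptor S1pr4, named after its values were seen, was called lower with at least 4 UMIs required over Cdh5 and Pecam1 (edgeR adjusted p = 0.0375), where 10% of all genes were called lower. Spns2, the exporter of sphingosine 1-phosphate, was at 0.14 (edgeR adjusted p = 0.621).

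Of 15 other KLF genes 12 were tested and edgeR called 0 (2 at an unadjusted p under 0.05, 1 by DESeq2), with a median of -0.23 and 4 of the 12 above 0, beside 9.59% of all genes lower by edgeR, 20.5% at an unadjusted p under 0.05 and 11.8% lower by DESeq2. That median ran from -0.40 without control replicate 1 to -0.011 without control replicate 2 as single libraries were left out. Klf6 was at 0.12 and Klf7 at 0.30, and the 1 called by DESeq2 was Klf11, named after its values were seen, which was lower in disease. EdgeR called Klf11 lower with at least 4 UMIs required over Cdh5 and Pecam1 (adjusted p = 0.0417) and without barcodes that passed another lineage's gate (adjusted p = 0.0375). It called Klf3, also named after its values were seen, lower without control replicate 1 (edgeR adjusted p = 0.0274). Of 10 pan-endothelial genes edgeR called 0 (1 at an unadjusted p under 0.05, 1 lower by DESeq2), beside those same shares of all genes, with Egfl7 at 0.03 and Flt1 at -0.18.

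Klf2 and Klf4 also belong to the genes that tissue digestion is known to induce, so 21 other early-response genes were read beside them. In endothelial barcodes 5 of the 21 were called lower and 0 higher, beside 9.59% and 0.125% of all genes, with a median of -0.20. That median was -0.36 without disease replicate 3, -0.074 without disease replicate 4 and -0.089 with the GC trend removed. Atf3, a stress-induced transcription factor, fell from 747 and 460 CPM in control to 128, 142 and 143 CPM in disease (-2.19, SE 0.22, edgeR adjusted p = 0.00533). Dusp1, Socs3, Rhob and Nfkbia were the other 4, at log2 fold changes of -1.01, -1.17, -1.21 and -1.69, the last named after its values were seen. In fibroblast barcodes edgeR called 6 of the 21 lower, beside 12.5% of all genes, and these included the 5 called in endothelium. Fos, at 2681 and 2068 CPM in control and 2383, 2799.6 and 2555 CPM in disease, was not called (edgeR adjusted p = 0.848) and was named after its values were seen. With the GC trend removed 2 of the 21 were called, beside 7.56% of all genes lower. Leaving out single libraries gave 0 to 6 calls, beside 3.19 to 8.78% of all genes lower, and DESeq2 called 9 lower, beside 11.8% of all genes. The part of digestion in the Klf2 and Klf4 levels was not tested.

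**Figure D5:**
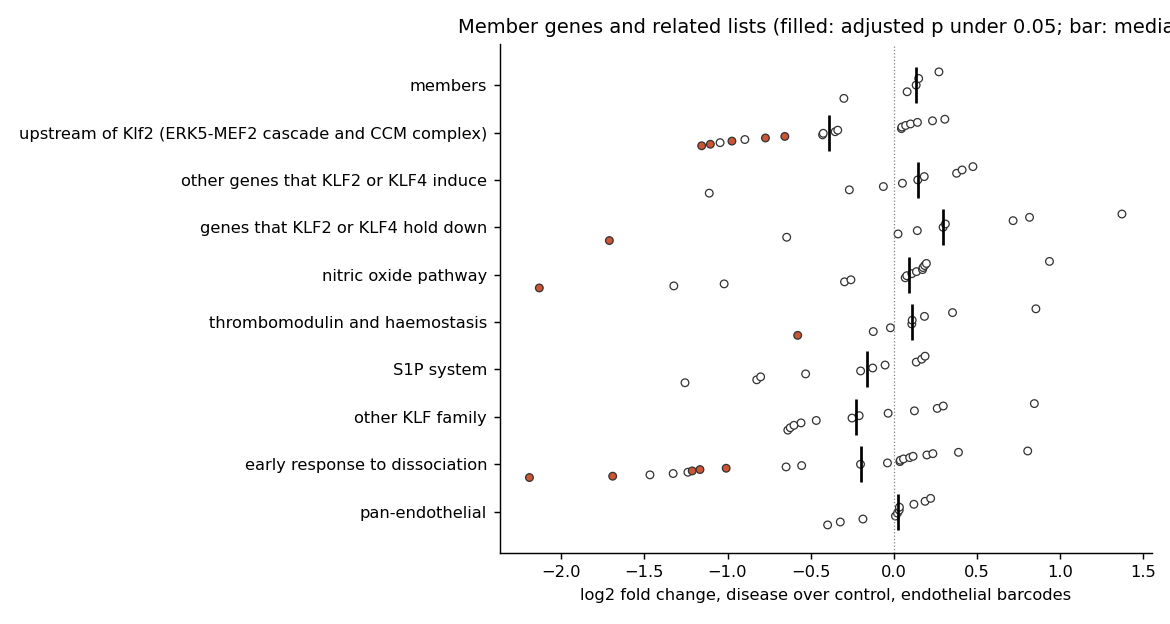
Log2 fold change of disease over control in endothelial barcodes for each tested gene of the members and of 9 related lists (filled points passed an edgeR adjusted p of 0.05, bars are list medians). The member median is 0.14, the upstream genes have the lowest median (-0.39) and 5 called genes, and every called gene lies below 0.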

How the data were processed

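The deposited files hold raw UMI counts per gene and barcode, which the authors made with Cell Ranger (version 3.1.0, per the file headers), and mm10 and GRCh38 are both listed in the submitters' processing notes. The 5 members and the gene lists were chosen with earlier results of these data known. Barcodes were retained from 500 UMIs and 200 genes upward, up to a mitochondrial share of 10%. Doublets were not called. Endothelial barcodes carried at least 2 UMIs over Cdh5 and Pecam1, and other lineages passed exactly 1 of 9 marker gates.

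Counts were summed per library and lineage (at least 50 barcodes in each library) and compared by edgeR 4.0.16 (R 4.3.3; TMM, filterByExpr, quasi-likelihood F test, Benjamini-Hochberg over all genes, threshold 0.05). The standard error was derived from the log2 fold change and its F statistic. DESeq2 1.42.0 was an alternative, and the edgeR script was tested on simulated data. CPM uses plain library totals unless TMM is named. Shares were compared by the exact two-sided permutation test over libraries. The GC trend was a per-library fit on the first 300 transcript bases (GENCODE M21). Named list genes are those called (at most the 4 with the lowest p per list), otherwise the 2 with the highest mean CPM.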

Additional observations from a re-analysis of the deposited data

How the results depend on the processing

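No member was called in endothelial barcodes under any of the 14 alternatives run for each (edgeR or DESeq2 adjusted p of 0.0566 to 0.967), and Klf4, Nos3, Thbd and S1pr1 kept their direction there. The number of genes called, 1318 with all libraries, ran from 429 to 1208 when 1 library was left out, and was 1725 with DESeq2 and 1048 with the GC trend removed. All 45 alternatives of the arterial against capillary comparison kept direction and call. No paired analysis was possible because control and disease libraries share no replicate number.

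The direction changed in the following uncalled log2 differences, and the cause was not tested. With the GC trend removed, Klf2 in fibroblast barcodes was 0.087, Thbd in fibroblast barcodes -0.056, S1pr1 in B cell barcodes 0.11 and Klf4 in endothelial minus T cell barcodes -0.21. With a mitochondrial maximum of 25%, Nos3 in fibroblast barcodes was -0.019, Thbd in macrophage barcodes 0.021 and S1pr1 in B cell barcodes 0.067. With DESeq2, Thbd in T cell barcodes was 0.13 and Klf4 in endothelial minus T cell barcodes -0.032. With every gene kept, Thbd in T cell barcodes was 0.065. With TMM scaling within each lineage, Klf4 in endothelial minus T cell barcodes was -0.16. Without thinning, the Klf2 share differed by -2.74 points.

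Leaving out 1 library moved Klf2 from -0.18 to 0.46 in endothelial, -0.036 to 0.57 in arterial, -0.19 to 0.45 in capillary, -0.40 to 0.17 in fibroblast, -0.57 to 0.0042 in macrophage, -1.91 to 1.27 in T cell and -0.13 to 0.89 in B cell barcodes. The Klf2 share ran from -4.66 to 12.01 points. Nos3 ran from -0.21 to 0.26 in fibroblast and from -0.44 to 0.45 in macrophage barcodes. Thbd ran from -0.25 to 0.053 and S1pr1 from -0.54 to 0.13 in macrophage barcodes. Klf4 ran from -0.38 to 0.76 and S1pr1 from -1.97 to 0.98 in T cell barcodes, and S1pr1 from -0.088 to 0.12 in B cell barcodes. For endothelial minus fibroblast, Thbd ran from -0.088 to 0.21, and for endothelial minus macrophage, Nos3 ran from -0.54 to 0.14. For endothelial minus T cell, Klf2 ran from -0.42 to 1.58, Klf4 from -0.38 to 0.32, Thbd from -0.81 to 0.43 and S1pr1 from -0.46 to 2.03. With scaling within each lineage those 4 ran from -0.53 to 1.73, -0.49 to 0.35, -0.66 to 0.30 and -0.58 to 2.18, with Klf4 at -0.054, -0.32 and -0.20 and Thbd at -0.049, 0.15 and -0.041 without disease replicates 3, 4 and 5.

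In bulk sums, fewer transcripts per cell and a different mix of cells in a gate cannot be told apart. Free RNA was not estimated. With 2 against 3 libraries of pooled mice, member differences of disease over control that were larger than their standard errors also went uncalled. Thbd in arterial barcodes, at 0.27 (SE 0.13), had an edgeR adjusted p of 0.307. Nos3 in endothelial barcodes, at -0.30 (SE 0.18), had an edgeR adjusted p of 0.423. The smallest difference that these fits detect was not estimated. A member that was not called is therefore not shown to be unchanged.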
